A study of Mus musculus with 24 samples.

Results

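The genes described here are Rbm45 and 9 other genes that lie on mouse chromosome 2 within 4 Mb of Nfe2l2, the gene that encodes Nrf2. They are Cdca7, Hoxd12, Mtx2, Hnrnpa3, Agps, Ttc30b, Ttc30a1, Pde11a and Prkra. The array gave them 21 of its 41174 probes, and 91 genes with 147 probes lay in the same window once Nfe2l2 itself was left out. Rbm45 was chosen by its measured difference between Nrf2-/- and wild-type mice in these samples, and its neighbours were selected on position with that difference known. The differences between Nrf2-/- and wild type are therefore given for these 10 genes as a description, with no test.

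Nrf2 is a transcription factor that is held back by Keap1 and released by electrophiles and oxidants. It then binds antioxidant response elements and raises genes of glutathione synthesis, quinone reduction and thioredoxin recycling. A mouse gene is usually knocked out in embryonic stem cells of one strain, and after crossing to another strain the targeted allele keeps a stretch of the first strain's chromosome around it. Genes in such a stretch can differ from the host strain whether or not the targeted gene acts on them. The question for the 10 genes was whether a difference between Nrf2-/- and wild-type oesophagus ran through the neighbourhood of Nfe2l2 or stood at 1 gene.

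The 8 groups were Nrf2-/- and wild-type mice without reflux and with gastric, duodenal or mixed reflux for 4 weeks, and each group had 3 arrays. All mice were labelled as 12 weeks old, male and of strain C57BL/6J, bred in-house and genotyped by PCR. The labels used here give neither the strain in which the Nrf2-/- allele was made nor the number of crosses onto C57BL/6J. The labels disagree on the tissue: every sample is described as epithelium, but the tissue field gives the whole organ for 7 groups and the epithelium only for Nrf2-/- mice with mixed reflux. If that field holds, tissue and genotype cannot be told apart under mixed reflux. Each 2-colour Agilent array set oesophagus RNA in Cy5 against a common reference RNA of 11 mouse cell lines in Cy3, and a value below is the log2 ratio of the first over the second. Levels of different probes are not compared, since each probe has its own response.

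The squamous keratin genes Krt4, Krt13, Krt5 and Krt14 and the basal-cell factor Trp63 were well above background on all 24 arrays. The mean log2 ratio of 6 neutrophil markers separated the genotypes in every condition. It was 1.61 to 1.75 on Nrf2-/- arrays without reflux, against 0.33 to 1.18 in wild type. It was 1.93 to 2.80 with gastric reflux in Nrf2-/- mice, against 1.01 to 1.52 in wild type. With duodenal reflux it was 4.73 to 4.91 in Nrf2-/- mice, against 3.58 to 3.67 in wild type. With mixed reflux it was 5.05 to 5.14 in Nrf2-/- mice, against 2.23 to 3.93 in wild type. Of 8 such cell type lists, 4 overlapped between the genotypes without reflux, 4 with gastric, 4 with duodenal and 5 with mixed reflux, and the part of these cell types in the results below was not tested. The 3 arrays of Nrf2-/- mice with mixed reflux differed by no more than repeat spots of 1 array did, at 0.911 to 1.17 times that variance against at least 1.69 times in the 21 pairs of the other groups. They were counted as 1 sample, which left 22 samples. Replicate 1 of Nrf2-/- gastric reflux and replicate 2 of Nrf2-/- duodenal reflux were each the lowest of their group both in mean correlation to the group's other arrays, at 0.731 and 0.883, and in the share of probes well above background, at 62.9% and 56.8%. They stand apart in this sense only, since wild-type gastric reflux replicate 1, which was kept, had a mean correlation of 0.870. Results that rest on these 2 arrays are given with and without them, and their exclusion was chosen after seeing the data. Replicates 1 and 2 of wild type without reflux were on the only slide read with another software version, where 13.0% and 11.8% of spots were marked as outliers, and some probes have no value there. The array labelled Nrf2-/- gastric reflux replicate 2 had an Xist log2 ratio of -1.78, against -7.20 to -4.67 on the other 23 arrays, although all animals were labelled male. Only 1 slide held both genotypes, and nothing in the labels ties arrays to separate extractions beyond the word biological replicate.

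Because everything said about Rbm45 rests on a single 60-base probe, that probe is shown first. On build mm9 its ends lie at positions 76218588 and 76221536 of chromosome 2, on the plus strand. That span of 2949 bases shows that the probe crosses at least 1 intron. The probe lies 698 kb from the middle of the Nfe2l2 probes. Its first 30 bases, 5′ to 3′, are shown with 1 probe of Hnrnpa3, the gene nearest to Nfe2l2, whose 4 probes disagree with one another below. The Hnrnpa3 probe spans 60 bases of the genome, and all letters are lower case because no base is singled out.
Rbm45 probe, first 30 bases: tccaaaaagaggcagagaacttactgagtc
Hnrnpa3 probe, chr2:75500015-75500074, plus strand: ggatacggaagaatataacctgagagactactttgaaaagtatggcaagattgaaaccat

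Rbm45 encodes an RNA-binding protein with RNA recognition motifs, known from its presence in protein inclusions of human neurodegenerative disease. Its log2 ratios in Nrf2-/- oesophagus were 1.03, 1.20 and 1.39 without reflux, against -1.57, -1.55 and -2.26 in wild type. Under gastric reflux they were 0.61, 1.80 and 1.54 in Nrf2-/- mice, against -1.78, -2.26 and -2.08 in wild type. Under duodenal reflux they were 2.13, 1.59 and 2.08 in Nrf2-/- mice, against -0.90, -1.16 and -0.82 in wild type. In every condition all Nrf2-/- arrays lay above all wild-type arrays. Under mixed reflux the Nrf2-/- arrays gave 1.76, 1.79 and 1.85, against -1.65, -1.51 and -1.68 in wild type. The probe was well above background on all 24 arrays of both genotypes.

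**Figure D1:**
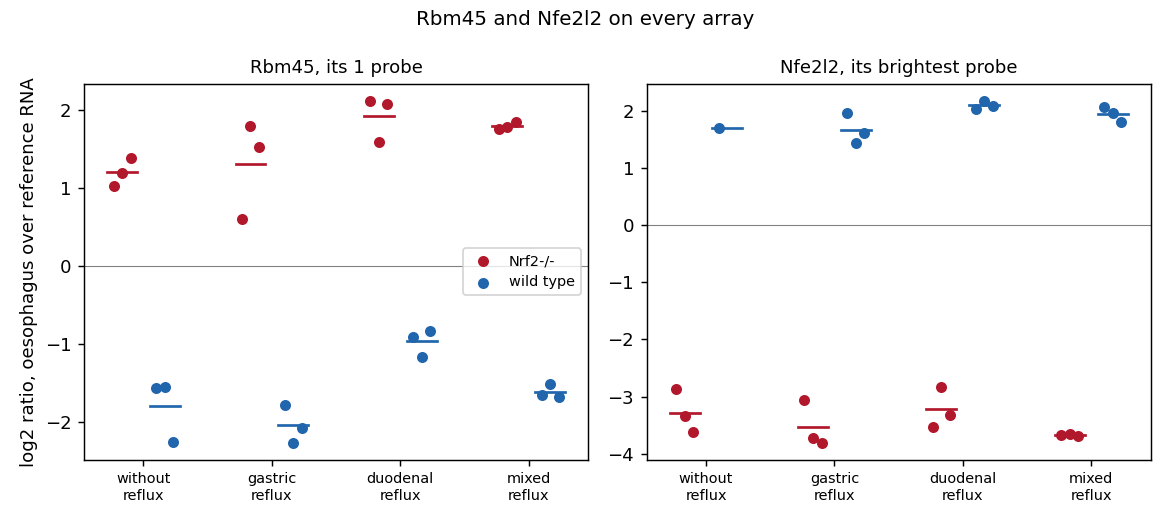
Log2 ratio of oesophagus over reference RNA (vertical axis) for the Rbm45 probe and for the brightest Nfe2l2 probe in the 4 conditions, with 1 point per array, red for Nrf2-/- and blue for wild type, and bars at the group means. Rbm45 was higher on every Nrf2-/- array (lowest 0.61) than on any wild-type array (highest -0.82), while the Nfe2l2 probe lay at -2.83 or below on Nrf2-/- arrays and at 1.45 or above in wild type, where 10 arrays gave it a value.

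The difference, Nrf2-/- minus wild type, was 3.00 ± 0.26 without reflux, 3.36 ± 0.26 under gastric, 2.89 ± 0.26 under duodenal reflux and 3.41 ± 0.37 under mixed reflux (log2, SE from the fit over 22 samples). Averaged over the 4 conditions it was 3.17 ± 0.15, an 8.97-fold higher ratio in Nrf2-/- mice. The spread between arrays of a group was 0.333 (pooled SD). The lowest Nrf2-/- array was 1.43 above the highest wild-type array. Among all 30018 probes that passed the filter, only 2 were higher on every Nrf2-/- array than on every wild-type array, Rbm45 and Oasl1 on chromosome 5, whose gap was 0.07. Ranked by size among higher probes, Rbm45 was at place 1 for the mean of the 4 conditions and under gastric reflux, at place 2 without reflux, at 5 under duodenal and at 31 under mixed reflux.

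On the slide that held both genotypes the Rbm45 ratios were 1.39 and 0.61 in the Nrf2-/- arrays without reflux and with gastric reflux, against -1.51 and -1.68 in the wild-type arrays with mixed reflux. Within the scan days that held both groups the difference was 3.37 without reflux, 2.89 under duodenal reflux and 3.41 under mixed reflux. No scan day held both genotypes under gastric reflux, so that scan day and genotype cannot be told apart there. Without the 2 arrays that stand apart the difference averaged 3.30 ± 0.11.

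The targeted gene was checked in the same way. Of the 3 Nfe2l2 probes, the brightest read -3.81 to -2.83 on Nrf2-/- arrays, against 1.45 to 2.18 in wild type. A second one read -7.54 to -5.03 on Nrf2-/- arrays, against 1.31 to 2.05 in wild type. The brightest fell by 5.29 ± 0.15 (limma adjusted p = 1.57e-11, mean of the 4 conditions). The third probe, annotated to another transcript of the gene, overlapped between genotypes, with a difference of -0.03 ± 0.14 (limma adjusted p = 0.917). The labels do not give the deleted part of the gene, and whether the third probe lies outside it is not known here.

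For scale, 12 genes widely used as Nrf2 targets were set beside Rbm45. In the mean of the 4 conditions all 12 fell (limma, adjusted over all probes), and their median difference was -1.56, where the median over all probes was 0.02. Nqo1, a quinone reductase, fell by 2.97 ± 0.13 (adjusted p = 2.61e-09), and Gclc, the catalytic subunit of glutathione synthesis, fell by 1.97 ± 0.21 (adjusted p = 5.74e-05). The size of the Rbm45 difference was thus near that of Nqo1, with the opposite sign. Of all probes, 7.5% were called in that comparison.

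Antioxidant response element cores were looked for in the RefSeq promoter windows of build GRCm38.p6, which run from 250 bases before to 50 bases after each gene start. The motif searched was TGACNNNGC on either strand, whose reverse complement is GCNNNGTCA. It was found in 12.4% of all 32851 windows and in 14% of the 27025 genes with a window. Of the 10 genes, 9 had a window (Ttc30b had none), and Mtx2 and Hnrnpa3 held the motif. Of the 10 target genes with a window, 4 held it, among them Gsta3 and Gclm. The 250 bases before the start of Rbm45 held no match, which says nothing of sites elsewhere. They are printed because Rbm45 carries the finding, and beside them the stretches of Mtx2, Hnrnpa3, Gsta3 and Gclm that hold the motif, all on the plus strand, 5′ to 3′, with the match in capitals.
Rbm45, chr2:76369734-76369983: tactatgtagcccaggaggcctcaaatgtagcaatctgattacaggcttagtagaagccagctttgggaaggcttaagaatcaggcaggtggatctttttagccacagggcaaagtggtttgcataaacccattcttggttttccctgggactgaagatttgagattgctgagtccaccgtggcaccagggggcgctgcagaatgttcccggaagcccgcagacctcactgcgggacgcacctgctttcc
Mtx2, chr2:74825783-74825811: gcagccggaagtgccggcgcGCGTTGTCA
Hnrnpa3, chr2:75659179-75659227: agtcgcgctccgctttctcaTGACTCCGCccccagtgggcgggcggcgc
Gsta3, chr1:21240444-21240492: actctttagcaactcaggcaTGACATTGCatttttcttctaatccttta
Gclm, chr3:122245403-122245451: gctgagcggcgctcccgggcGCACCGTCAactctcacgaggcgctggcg
Gsta3 and Gclm, a glutathione transferase and the modifier subunit of glutathione synthesis, fell by 2.29 ± 0.12 and 0.80 ± 0.23 in Nrf2-/- mice in the mean of the 4 conditions (limma adjusted p = 6.36e-09 and 0.0412). The brightest probes of Mtx2 and Hnrnpa3 averaged differences of -0.02 ± 0.19 and -0.09 ± 0.09.

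The 9 neighbours did not show the Rbm45 pattern. All 9 had a probe that passed the filter, and 18 of the 21 probes passed it. The other 3, 2 of Pde11a and 1 of Prkra, were well above background on at most 2 of 24 arrays. Over all 18 probes the median difference in the mean of the 4 conditions was -0.07, and the median over all probes was 0.02. Under duodenal reflux alone these medians were -0.43 and 0.01. None of the 17 probes other than Rbm45 separated the genotypes on all arrays. Such separation was rare over all 30018 probes, with 2 above and 34 below wild type, so its absence is not particular to the neighbours.

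**Figure D2:**
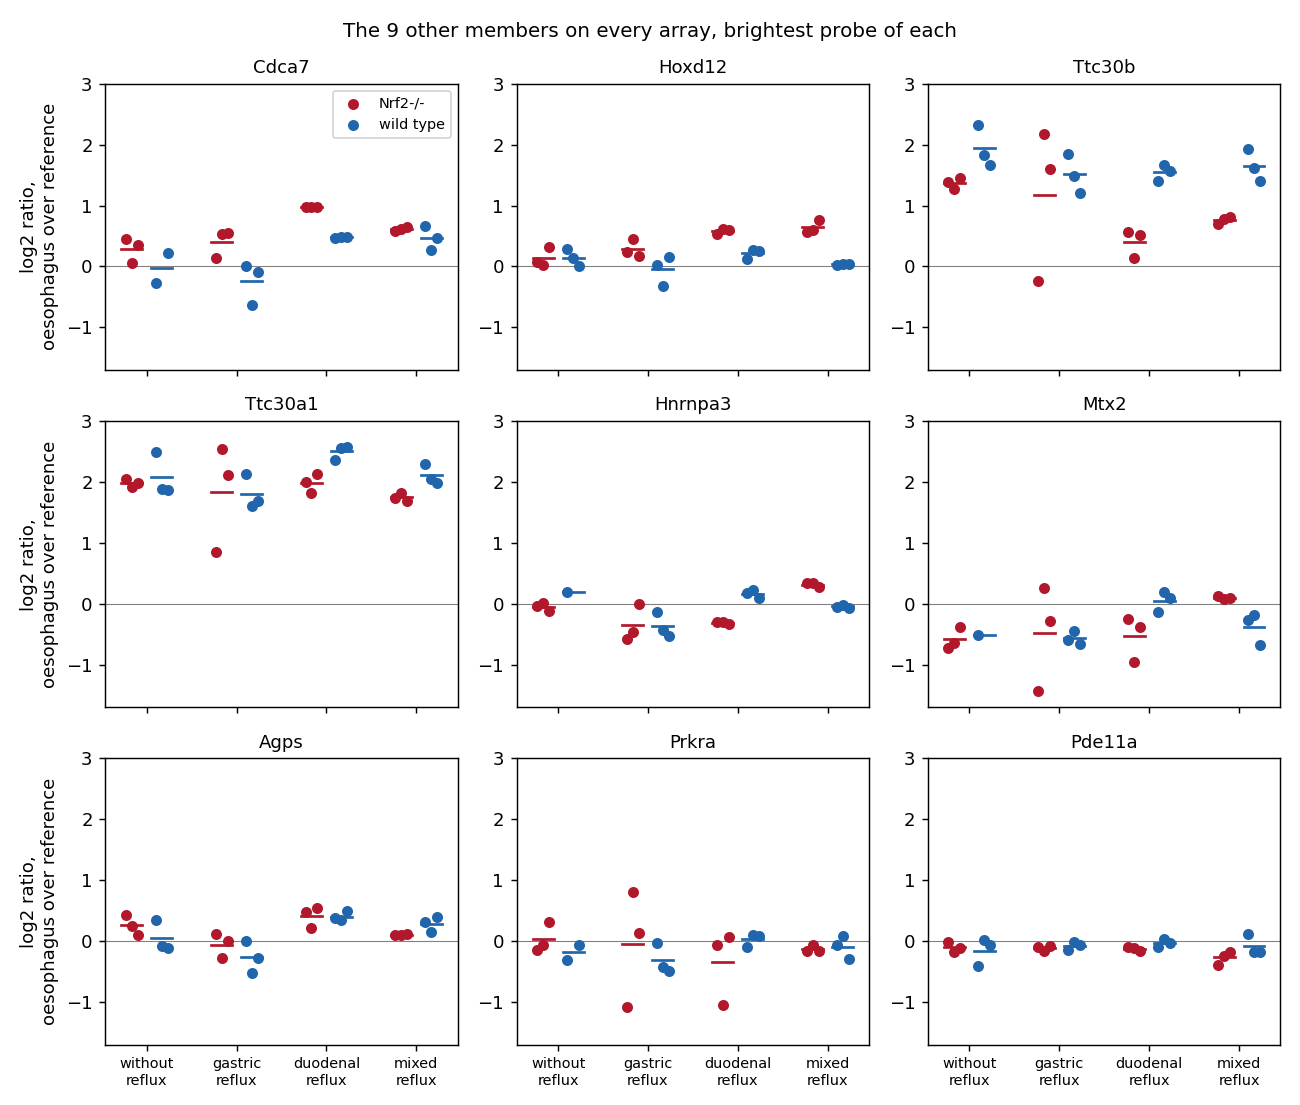
Log2 ratio of oesophagus over reference RNA (vertical axis) for the brightest probe of each of the other 9 genes in the 4 conditions, with 1 point per array, red for Nrf2-/- and blue for wild type, and bars at the group means. The genotypes overlap in at least 1 condition for every gene, and for Ttc30b the Nrf2-/- arrays lie below wild type in 3 of the 4 conditions.

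Cdca7, a cell-cycle gene whose protein recruits the chromatin remodeller Hells, lies 3.20 Mb from Nfe2l2. Its ratios under duodenal reflux were 0.98, 0.97 and 0.98 in Nrf2-/- mice, against 0.47, 0.49 and 0.48 in wild type. Under gastric reflux they were 0.13, 0.52 and 0.55 in Nrf2-/- mice, against 0.01, -0.63 and -0.08 in wild type. Nrf2-/- arrays lay above wild type in these 2 conditions and overlapped with it in the other 2. Its difference was 0.30 ± 0.21 without reflux, 0.64 ± 0.18 under gastric, 0.50 ± 0.18 under duodenal reflux and 0.15 ± 0.26 under mixed reflux.

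Hoxd12, a homeobox gene of the HoxD cluster that acts in limb patterning, lies 1.01 Mb from Nfe2l2. Its probe was dim, well above background on 10 of 12 Nrf2-/- arrays and 6 of 12 wild-type arrays. The ratios under mixed reflux were 0.57, 0.59 and 0.76 in Nrf2-/- mice, against 0.03, 0.03 and 0.04 in wild type. The genotypes were apart under each reflux and overlapped without reflux, where the difference was 0.00 ± 0.13. Under gastric, duodenal and mixed reflux it was 0.33 ± 0.13, 0.37 ± 0.13 and 0.61 ± 0.19.

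Ttc30b and Ttc30a1 encode proteins of intraflagellar transport, which builds the cilium. The genes are near-identical copies, so their probes may read both. Ttc30b had ratios of 0.57, 0.13 and 0.52 under duodenal reflux in Nrf2-/- mice, against 1.41, 1.67 and 1.56 in wild type. Under mixed reflux they were 0.70, 0.77 and 0.81 in Nrf2-/- mice, against 1.94, 1.61 and 1.41 in wild type. The Nrf2-/- arrays were lower in both, and also without reflux, at 1.39, 1.27 and 1.45 against 2.33, 1.82 and 1.66. Under gastric reflux they ran from -0.25 to 2.17 in Nrf2-/- mice and enclosed the wild-type values of 1.20 to 1.85.

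The Ttc30b difference was -0.56 ± 0.40 without reflux, -0.34 ± 0.40 under gastric, -1.14 ± 0.40 under duodenal reflux and -0.89 ± 0.57 under mixed reflux. Under gastric reflux the sign rests on 1 array, since without the 2 arrays that stand apart it was 0.37 ± 0.23. The other Ttc30b probe gave -0.17 ± 0.39 without reflux and -1.16 ± 0.39 under duodenal reflux. For Ttc30a1 the brightest probe differed by -0.52 ± 0.30 under duodenal reflux and -0.36 ± 0.42 under mixed reflux, below wild type on every array in both, and overlapped in the other 2 conditions.

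Hnrnpa3, a nuclear RNA-binding protein of the hnRNP A/B family, is the nearest neighbour, with probes 15 to 22 kb from Nfe2l2. Its 4 probes disagreed with one another. In the mean of the 4 conditions they gave -0.55 ± 0.24 for the probe printed above, -0.09 ± 0.09 for the brightest, and -0.07 ± 0.18 for another. The probe farthest along the gene, annotated to another transcript than the rest, gave 0.21 ± 0.09. The brightest probe read -0.30, -0.30 and -0.33 under duodenal reflux in Nrf2-/- mice, against 0.17, 0.23 and 0.10 in wild type. It was lower in Nrf2-/- mice there but higher under mixed reflux, at 0.34, 0.33 and 0.27 against -0.04, -0.01 and -0.07.

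Mtx2, a metaxin of the mitochondrial outer membrane that takes part in protein import, lies 0.81 Mb away. Its brightest probe ran from -1.43 to 0.26 in Nrf2-/- mice, against -0.67 to 0.20 in wild type, where 10 arrays gave a value. The lowest value belonged to Nrf2-/- gastric reflux replicate 1. The difference was -0.58 ± 0.32 under duodenal reflux and 0.47 ± 0.45 under mixed reflux, and -0.06 ± 0.45 without reflux. Under gastric reflux it was 0.08 ± 0.32 with all arrays and 0.55 ± 0.19 without the 2 arrays that stand apart, which left -0.37 ± 0.19 under duodenal reflux. Without reflux it rests on 1 wild-type array, and under mixed reflux on 1 Nrf2-/- sample.

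Agps, which makes the first ether bond of plasmalogens in the peroxisome, had differences of 0.21 ± 0.16, 0.21 ± 0.16, 0.00 ± 0.16 and -0.18 ± 0.23 in the 4 conditions in the order above. Prkra, a double-stranded RNA-binding partner of PKR and Dicer, averaged 0.01 ± 0.21, with values of -1.08 to 0.80 in Nrf2-/- mice and -0.48 to 0.10 in wild type. Its 2 lowest values, -1.08 and -1.04, were on the 2 arrays that stand apart, and without them it averaged 0.23 ± 0.11, with 0.77 ± 0.21 under gastric reflux. Pde11a, a phosphodiesterase of both cyclic nucleotides, was well above background on 4 of 12 Nrf2-/- and 7 of 12 wild-type arrays by its brightest probe, and averaged -0.07 ± 0.07.

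In the same fit, 1 member probe of 18 was called without reflux, 2 under gastric, 1 under duodenal, 1 under mixed reflux and 3 in the mean, and Rbm45 was among them each time. Without the 2 arrays that stand apart the counts were 2, 8, 4, 3 and 8 of 18, beside 0.982%, 32.8%, 2.97%, 12.8% and 25.2% of all probes. Nothing is read from these counts, since the genes were chosen on this contrast. With all arrays, 0.147% of all probes were called without reflux, 17.5% under gastric, 1.53% under duodenal, 2.74% under mixed reflux and 7.5% in the mean. Non-overlap in 1 condition is common with so few arrays. It was found in 28.4% of all probes without reflux, 27.3% under gastric, 39% under duodenal reflux and 57.4% under mixed reflux. The mixed share sets 3 near-identical Nrf2-/- arrays, which count as 1 sample, against wild type. Of the 18 member probes, 4 lay above and 2 below wild type without reflux, and 3 above and 1 below under gastric reflux. Under duodenal reflux 3 lay above and 11 below, and under mixed reflux 7 above and 5 below. Some of these probes share a gene, and by brightest probe 3 of the 10 genes lay above and 5 below under duodenal reflux. These are descriptions too, and were not tested.

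The window was set by position alone, but the 10 genes taken out of it here were chosen with the genotype difference known. Of its 74 tested probes that belong to none of the 10 genes, 0 were called without reflux (limma, adjusted p under 0.05, 3 at an unadjusted p under 0.05) and 0 under duodenal reflux (8 at an unadjusted p under 0.05). Under gastric reflux 10 of 74 were called, 2 higher and 8 lower in Nrf2-/- mice, and under mixed reflux 1, lower. In the mean of the 4 conditions 1 of 74, or 1.35%, was called against 7.5% of all probes. The share called among these 74 was at or below that over all probes in every comparison. It was 13.5% against 17.5% under gastric reflux and 1.35% against 2.74% under mixed reflux. This share depends on taking out the 10 genes, which held calls in every comparison. Over all 92 tested probes of the window it was 1.09%, 13%, 1.09%, 2.17% and 4.35% in the 4 conditions and the mean. The shares over all probes were 0.147%, 17.5%, 1.53%, 2.74% and 7.5%. Their median difference in the mean was -0.11, and the median absolute difference was 0.20 against 0.16 over all probes. Single probes differed more, from -0.77 to 1.41 in the mean. The range was -0.64 to 2.31 without reflux and -2.98 to 2.56 under mixed reflux. Outside gastric reflux, no probe of the 74 that was higher in Nrf2-/- mice was called in any condition or in the mean.

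The counts changed without the 2 arrays that stand apart. Under gastric reflux the count was 26 of 75 probes outside the 10 genes, or 34.7%, beside 32.8% of all probes. The gastric counts rest on the arrays and the block as well, since with scan day as a block 0 of the probes outside the 10 genes were called, and 0 in a fit of the 2 gastric groups alone. In the mean it was 14 of 75, or 18.7%, beside 25.2%. Under mixed reflux it was 11 of 75, or 14.7%, beside 12.8%. Without reflux and under duodenal reflux it stayed at 0, beside 0.982% and 2.97% of all probes. Among the probes added under mixed reflux and in the mean was that of 6030499A19Rik, 0.017 Mb from Nfe2l2. It fell by 2.57 ± 0.42 under mixed reflux, where Nrf2-/- mice count as 1 sample, and by 0.82 ± 0.19 in the mean.

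The called neighbours, named by the rule, were mostly lower in Nrf2-/- mice with gastric reflux. Under gastric reflux the mean of 5 endothelium markers was also lower on every Nrf2-/- array, at 1.59 to 2.50 against 3.32 to 3.73 in wild type. The mean of 6 fibroblast markers was lower too, at -1.98 to -0.09 in Nrf2-/- mice against -0.02 to 0.57 in wild type. The part of these cell types in the called genes was not tested. ENSMUST00000049544, a transcript with no gene name here, differed by -1.01 ± 0.32 there (adjusted p = 0.0417). Rapgef4, an exchange factor activated by cyclic AMP, fell by 2.39 ± 0.51 under mixed reflux (limma adjusted p = 0.0169) and differed by 0.15 ± 0.36 under gastric reflux. Ttn, the giant spring protein of striated muscle, fell by 2.05 ± 0.65 under gastric reflux by 1 of its probes (limma adjusted p = 0.0398). The mean of 10 skeletal muscle markers ran from 2.36 to 5.60 on Nrf2-/- arrays with gastric reflux and from 1.16 to 5.24 in wild type, and its part in the Ttn result was not tested.

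Pdk1, a kinase that inhibits pyruvate dehydrogenase, fell by 1.08 ± 0.33, and Cir1, a corepressor in Notch signalling, fell by 0.73 ± 0.22 by 1 of its probes under gastric reflux (limma adjusted p = 0.0341 and 0.0305). Cir1 was also the single probe called in the mean, at -0.42 ± 0.12 (limma adjusted p = 0.0465). B230120H23Rik, by 1 of its probes, and Gm1631 rose under gastric reflux, by 1.00 ± 0.20 and 0.80 ± 0.27 (limma adjusted p = 0.00689 and 0.047). Scrn3, by 1 of its probes, the homeobox gene Hoxd9 and the transcript AK162487 fell by 1.00 ± 0.28, 1.04 ± 0.27 and 0.91 ± 0.23 there (limma adjusted p = 0.0236, 0.017 and 0.0141). None of the called neighbours separated the genotypes on all arrays, which few probes of the whole array did. None was called in more than 1 of the 4 conditions. The other probes of Rapgef4, Pdk1, Cir1 and B230120H23Rik did not pass, and that of B230120H23Rik gave -0.74 ± 0.31 under gastric reflux (limma adjusted p = 0.102).

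**Figure D3:**
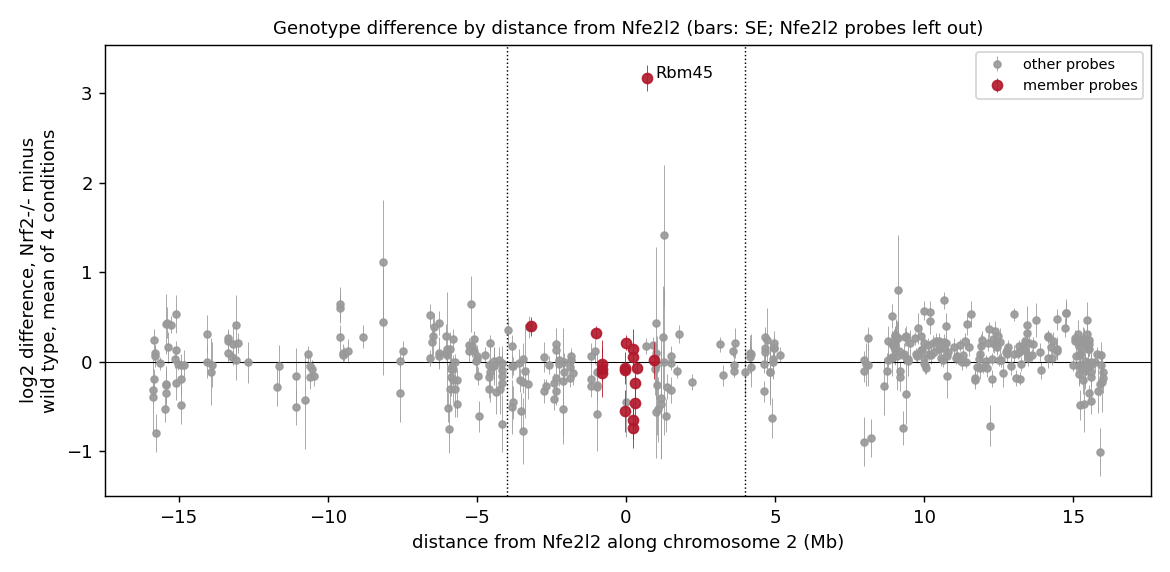
Difference in log2 ratio, Nrf2-/- minus wild type, averaged over the 4 conditions (vertical axis, with SE bars) for the 427 tested probes within 16 Mb of Nfe2l2 by their distance along chromosome 2, with probes of the 10 genes in red and the 4 Mb window between dotted lines. Rbm45 at 3.17 is the highest, and the other member probes lie between -0.73 and 0.40. The highest probe of the window outside the 10 genes lies at 1.41.

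Calls were also counted by distance from Nfe2l2. In the mean of the 4 conditions 1 of 24 probes within 1 Mb was called (4.17%, Rbm45), 1 of 28 at 1 to 2 Mb (3.57%), 2 of 40 at 2 to 4 Mb (5%) and 3 of 80 at 4 to 8 Mb (3.75%). At 8 to 16 Mb it was 24 of 255 (9.41%), at 16 to 32 Mb 11 of 208 (5.29%), and farther off 117 of 1788 (6.55%). On the other chromosomes it was 2044 of 27114 (7.54%). Without reflux, under duodenal and under mixed reflux the 24 probes within 1 Mb held 1 call each (4.17%), which was Rbm45, against 0.129%, 1.53% and 2.78% on the other chromosomes. That share was the highest of the bins in these 3 conditions, and it rests on the single probe that chose the gene set. Under gastric reflux 2 of 24 were called (8.33%), against 17.6% on the other chromosomes. At the edge of the window, Ssfa2 just inside at 3.99 Mb differed by -0.12 ± 0.28 and Dlx2 just outside at 4.14 Mb by -0.02 ± 0.20.

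Reflux was compared with no reflux within each genotype, a contrast that did not enter the choice of genes. Rbm45 under duodenal reflux was 0.72 ± 0.26 above no reflux in Nrf2-/- mice and 0.83 ± 0.26 above it in wild type, neither past the threshold (limma adjusted p = 0.0614 and 0.0539). Without the 2 arrays that stand apart both passed, at 0.89 ± 0.20 in Nrf2-/- mice and 0.83 ± 0.18 in wild type (limma adjusted p = 0.00605 and 0.0054). Both left-out arrays were Nrf2-/-, so the wild-type difference stayed at 0.83. Only its SE, which rests on all groups of the fit, and its adjusted p changed. Gastric reflux gave 0.11 ± 0.26 in Nrf2-/- mice and -0.25 ± 0.26 in wild type, and mixed reflux 0.59 ± 0.37 in Nrf2-/- mice and 0.18 ± 0.26 in wild type, none past the threshold. Within wild type the highest mean was -0.96 ± 0.18 with duodenal and the lowest -2.04 ± 0.24 with gastric reflux (SD, n = 3 each). In Nrf2-/- mice the highest mean was 1.93 ± 0.30 with duodenal reflux and the lowest 1.21 ± 0.18 without reflux (SD, n = 3 each).

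**Figure D4:**
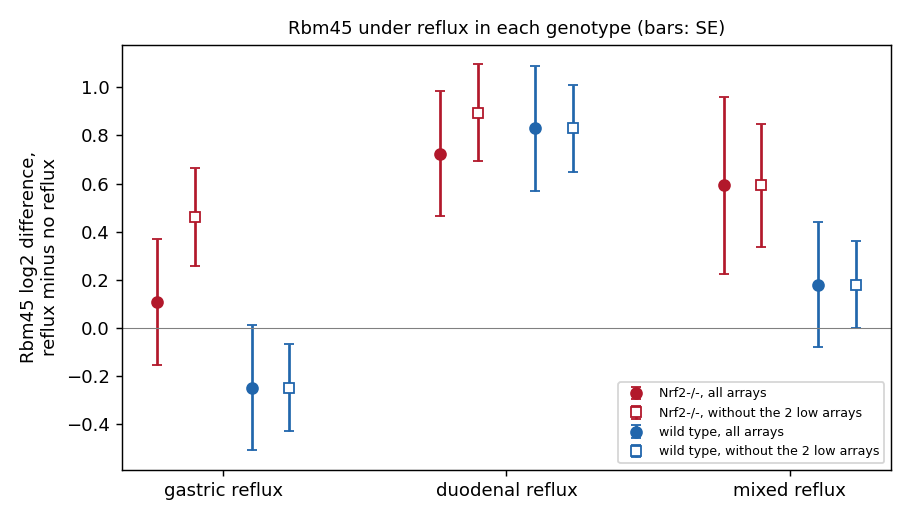
Rbm45 difference in log2 ratio, reflux minus no reflux (vertical axis, bars are SE), for each kind of reflux in Nrf2-/- (red) and wild-type mice (blue), from all arrays (filled) and without the 2 arrays that stand apart (open). The duodenal values of both genotypes lie between 0.72 and 0.89.

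All wild-type arrays with duodenal reflux were scanned on a later day than those without reflux, so that scan day and reflux cannot be told apart in wild type. In Nrf2-/- mice the 3 duodenal arrays averaged 1.93 and the single array without reflux of the same scan day read 1.39, a difference of 0.54.

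Of the 18 member probes, 3 were called under duodenal reflux in Nrf2-/- mice (limma), where 18.9% of all probes were. Cdca7 rose by 0.69 ± 0.18 (adjusted p = 0.0163) and Hoxd12 rose by 0.44 ± 0.13 (adjusted p = 0.0304). The Hoxd12 probe was dim, well above background on 16 of 24 arrays, and a filter that asked for signal throughout 4 groups left it out. Hnrnpa3 fell by 0.53 ± 0.16 by its probe farthest along the gene, the one annotated to another transcript (adjusted p = 0.0269). These calls depended on the setting. With median centring none of them passed, and with scan day as a block only Hnrnpa3 did (adjusted p = 0.0229), while Cdca7 had 0.216 and Hoxd12 0.465. When 1 array of either group was left out, Cdca7 passed in 5 of 6 fits, Hnrnpa3 in 3 of 6 and Hoxd12 in 1 of 6. The Cdca7 call was lost without Nrf2-/- no-reflux replicate 2 (adjusted p = 0.0884). In wild type the same contrast gave 0.50 ± 0.21 for Cdca7 and 0.07 ± 0.13 for Hoxd12, neither past the threshold, and the difference between genotypes was not tested. In wild type 0 of 18 were called under gastric, duodenal or mixed reflux, where 3.88%, 9.66% and 0.0333% of all probes were. Under gastric and mixed reflux in Nrf2-/- mice 0 of 18 were called too, beside 0.303% and 3.87%. At an unadjusted p under 0.05 these 5 comparisons held 1, 5, 3, 0 and 1 of the 18 probes.

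Without the 2 arrays that stand apart, duodenal reflux called 5 of 18 member probes in Nrf2-/- mice and 4 of 18 in wild type, beside 22.2% and 22.8% of all probes. Both Ttc30b probes then fell in Nrf2-/- mice, the brightest by 0.83 ± 0.23 (limma adjusted p = 0.017), and Hoxd12 no longer passed (adjusted p = 0.0521). In wild type Agps rose by 0.91 ± 0.20 by its dimmer probe, and Ttc30a1 by 0.86 ± 0.22 by its dimmer probe (limma adjusted p = 0.00536 and 0.0124). The Hnrnpa3 probe printed above fell by 1.12 ± 0.38 in wild type (limma adjusted p = 0.0461). No wild-type array was left out, so these wild-type differences of Agps, Ttc30a1 and Hnrnpa3 were the same with all arrays. Their limma adjusted p with all arrays was 0.146, 0.359 and 0.107.

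Genes elsewhere in the genome that work with the 10 genes were taken from 7 lists, each gene by its brightest probe. The shares of all probes given beside them count every probe kept, so the units differ. In the mean of the 4 conditions 3 of the 40 listed genes were called between the genotypes, 2 higher and 1 lower. The share of all probes was 7.5%, and the median difference of the 40 genes was -0.01. Both higher genes belonged to the list of 4 partners of Cdca7. Hells rose by 0.45 ± 0.10 and Uhrf1, which ties DNA methylation to histone marks, rose by 0.56 ± 0.10 (limma adjusted p = 0.0125 and 0.00451), while Dnmt1 and Pcna gave 0.21 ± 0.13 and 0.13 ± 0.19. Of 9 intraflagellar transport genes, Ift74 fell by 0.63 ± 0.13 (limma adjusted p = 0.00947). In the mean none was called among the 5 RNA-binding, 5 ether lipid, 6 phosphodiesterase, 4 small RNA and 7 mitochondrial import genes. By condition, 0 of 40 were called without reflux and under duodenal reflux, and 2 of 40, Hells and Uhrf1, under mixed reflux. Under gastric reflux 16 of 40 were called, 7 higher and 9 lower, beside 17.5% of all probes. They were 2 RNA-binding, 1 ether lipid, 5 intraflagellar transport, 2 phosphodiesterase, 3 small RNA and 1 mitochondrial import gene, and Hells and Uhrf1. The largest of them was Dicer1, the nuclease that makes small RNAs, which fell by 1.73 ± 0.44 (limma adjusted p = 0.0162). Since no scan day held both genotypes under gastric reflux, scan day and genotype cannot be told apart for these gastric calls.

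The genes whose ratios followed Rbm45 most closely over the 22 samples, among 15377 genes measured in all of them, were Car5b (r = 0.88), Ints6 (0.85), Dyrk3 (0.85), Tspan1 (0.84) and Fer1l4 (0.84). Of these only Fer1l4 is on chromosome 2, 80.3 Mb from Nfe2l2. The most opposite were Tbcel (r = -0.90), Gsta3 (-0.89), the unnamed probe A_51_P133953 (-0.87), Spaca1 (-0.83) and Pparg (-0.82). These correlations largely restate genotype, which all points share, and no p is given. Within the same neighbourhood Hoxd12 had r = 0.73 with Rbm45 and Cdca7 0.62 (21 samples), Ttc30b -0.51, and the other 6 genes lay between -0.22 and 0.28. Every Nrf2-/- mouse carried both the targeted allele and the DNA around it, so for Rbm45 the loss of Nrf2 and linked DNA cannot be told apart in this design.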

How the data were processed

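The members and gene lists were chosen with earlier results of these data known. Per the file headers, the deposited scanner files give mean spot intensity and local background intensity of both dyes and a log10 ratio from Agilent Feature Extraction 10.7.3.1 (build mm9), or 10.5.1.1 (build mm7) for 2 arrays. The submitters' processing notes name version 9.1. The authors' deposited series table holds log2 ratios of Cy5 over Cy3, whose centring stays unknown here. From the intensities, limma 3.58.1 in R 4.3.3 computed normexp background correction (offset 50, local backgrounds marked as outliers replaced by the array's median) and loess within each array, with control spots at weight 0 and outlier spots left out. Repeat spots were averaged. A probe was kept if its Cy5 signal was well above background throughout at least 1 group (30018 of 41174). One limma fit over 22 samples, with a mean per group, gave all differences. Benjamini-Hochberg adjustment ran over all probes kept, and a call is an adjusted p under 0.05. The number of arrays limits the precision. A gene was represented by its brightest probe. Named genes were all 10 members, up to 10 called neighbours by size of mean difference, the 5 genes most and least like Rbm45, and the lists. Promoter sequences are RefSeq's. The fit was tested on simulated data. No replicate pairing is described in the labels. Alternatives tried were other backgrounds, normalisations, filters, blocks and left-out arrays.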

Additional observations from a re-analysis of the deposited data

Results flagged for a closer look

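Probes of 3 genes had every Nrf2-/- array on one side of wild type in one condition and on the other side in another, which singled them out. The differences below are Nrf2-/- minus wild type in log2 ratio. The brightest Hnrnpa3 probe gave -0.249 without reflux and -0.476 under duodenal reflux, but 0.359 under mixed reflux. Another Hnrnpa3 probe gave 0.115 without reflux, -0.68 under duodenal and 0.424 under mixed reflux. The second-brightest Mtx2 probe gave -1.15 under duodenal and 0.921 under mixed reflux, and the brightest Mtx2 probe gave -0.584 and 0.474 there. The dimmer Agps probe gave 0.671 without reflux, -0.585 under duodenal and 0.182 under mixed reflux. The difference between conditions was not tested. Mixed reflux counts 1 Nrf2-/- sample, and for the Hnrnpa3 probes wild type without reflux counts 1 array. Such a pattern was found in 5 of the 18 member probes (27.8%), 19 of the 92 flanking probes (20.7%) and 7916 of all 30018 probes (26.4%).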

How the results depend on the processing

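The Rbm45 difference kept its direction in every alternative run. Without reflux (3.00) it was 2.08 with local backgrounds as read, 3.60 by the scanner software's log ratio, 3.41 by the deposited log ratios, 3.54 with median centring, 3.37 with scan day as a block or within days, and 3.47 without the 2 arrays of another software version. Under gastric reflux it was 2.92 with median centring and 3.71 without the 2 arrays that stand apart, and the mean was 3.52 by the scanner's log ratio. Leaving out 1 array at a time gave 2.77 to 3.12 without reflux, 3.12 to 3.71 under gastric, 2.80 to 3.06 under duodenal, 3.38 to 3.46 under mixed reflux and 3.11 to 3.25 in the mean.

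Counts of called flanking probes, Rbm45 included, moved more, and the cause was not tested. Without the 2 arrays that stand apart, 0.982%, 32.8%, 2.97%, 12.8% and 25.2% of all probes were called in the 4 conditions and the mean. For most other settings the share over all probes is not given here. Nothing about the neighbourhood is therefore read from these counts. Without reflux (1) there were 17 with backgrounds as read, beside 16.4% of all probes, and 2 without the 2 arrays that stand apart. Under gastric reflux (12) there were 1 with a scan-day block, 6 with slide as a random block, 0 in a fit of those groups alone and 34 without the 2 arrays. Under duodenal reflux (1) there were 8 with the scan-day block, 4 with those groups alone, 2 with the 3 near-identical arrays as 3 samples and 4 without the 2 arrays. Under mixed reflux (2) there were 4 by the scanner's log ratio, 1 by the deposited values, 5 with the scan-day block, 0 with those groups alone, 17 with 3 samples and 14 without the 2 arrays. In the mean (4) there were 1 by the deposited values, 2 with median centring, 1 with the scan-day block, 2 with the slide block, 13 with 3 samples and 22 without the 2 arrays. Leaving out 1 array gave 1 to 1 without reflux, 3 to 24 under gastric, 1 to 1 under duodenal, 1 to 5 under mixed reflux and 2 to 16 in the mean. The highest gastric and mean counts, 24 and 16, came without Nrf2-/- gastric reflux replicate 1, and the lowest gastric count of 3 without wild-type gastric reflux replicate 2 or 3. Without Nrf2-/- gastric reflux replicate 2 the gastric count was 7, and without wild-type gastric reflux replicate 1 the mean count was 9.

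The counts of called member probes that follow also stand without the share over all probes in each setting, and nothing is read from them. Called member probes in wild type were 2 under gastric (0) and 3 under mixed reflux (0) with backgrounds as read. Under duodenal reflux in wild type (0) they were 5 with backgrounds as read, 2 by the scanner's log ratio, 1 by the deposited values, 1 with outlier spots kept, 6 with those groups alone, 1 with 3 samples and 4 without the 2 arrays. Under duodenal reflux in Nrf2-/- mice (3) they were 1 by the deposited values, 0 with median centring, 1 with the scan-day block, 1 within days and 5 without the 2 arrays, and under mixed reflux (0) 2 with 3 samples. Leaving out 1 array gave 0 to 1 in wild type with gastric reflux, 1 to 2 in Nrf2-/- mice with duodenal reflux and 0 to 0 in the other 4 comparisons. Same-numbered arrays of the genotypes had correlations of -0.31 to 0.04, so the numbers do not pair the samples. With the replicate block the flanking counts were 1, 10, 1, 2 and 3. No within-day value exists for gastric reflux between genotypes, for the mean, or for wild type with duodenal or mixed reflux.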
